A study of Mus musculus with 5 samples.

Results

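The 35 genes described here belong to 3 families of developmental transcription factors, 18 Sox genes, 12 T-box genes and 5 Gata genes, out of 21883 protein coding genes on placed chromosomes of the RefSeq table. They were taken by name and not by any measured value. DNA methylation was measured in each gene over the whole gene body and over a window at its CpG-richer end, the one with more listed cytosines, that takes in 1000 bp of flank and the first 500 bp of the gene. A level is the mean percent methylation over the cytosines that the libraries under comparison share, with 3 or more required.

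The study read CpG methylation by reduced representation bisulfite sequencing, an assay of the CpG-rich fraction of the genome, in mice labelled C57BL/6x129S6. The control was muscle. The other 4 libraries were teratomas, tumours of mixed differentiated tissue, that formed from embryonic stem cells introduced into tetraploid embryos, and they carry the culture labels P5_2iL, P5_2iL_F, P5_a2iL_1 and P5_LCDM_1. The labels do not spell these out, and the last pair is written P5_a2iL and P5_LCDM here. The labels used here give no number of animals. Values given as a series stand in this order, with muscle first where there are 5. Every group held 1 library, so no difference below has a replicate check or a test, and each compares 2 libraries.

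Sox proteins bind DNA through a high mobility group box, T-box proteins through the T domain, and Gata proteins through zinc fingers that recognise the GATA motif. Most of these genes set the identity of an embryonic lineage, such as neural progenitors (Sox2), cartilage (Sox9), heart and limb (Tbx5), blood (Gata2) or endoderm (Gata6). Many of them lie in long CpG islands that carry Polycomb repression in embryonic stem cells, and such islands are mostly unmethylated in normal tissues.

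The files listed from 4014181 cytosines (muscle) to 5318763 (P5_2iL_F) on placed chromosomes. They give a percent for each cytosine and no read count, so depth is unknown and no interval could be given. Over 3079380 autosomal cytosines present in all 5 libraries the mean level ran from 42.7% in muscle to 49.5% in P5_2iL, with 44.4% in P5_LCDM. The only error measure was how far the plus and minus strands of shared CpGs lay apart within a library, which leaves out the spread between animals and library preparations. In bulk tissue a mixture of methylated and unmethylated cells cannot be told apart from partial methylation in each cell. A window was called higher or lower where the libraries differed by 25 percentage points or more, a size rule and not a test. Within a single library the strands lay this far apart in 1.08% (P5_2iL) to 2.4% (P5_a2iL) of all gene ends, in 0.706% (P5_2iL) to 1.71% (muscle) of gene bodies and in 4.25% (P5_2iL) to 10.4% (muscle) of 1 kb tiles.

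The labelled muscle was checked against 17 skeletal muscle genes. Their measured ends, 16 of them, had a median of 28.8% in muscle and 61.0% (P5_LCDM) to 83.9% (P5_2iL) in the teratomas. Against muscle 11, 12, 9 and 6 of them were higher in the teratomas and 0 were lower, beside 4.77%, 4.53%, 3.18% and 3.29% of all gene ends that were higher. Of 10 blood genes, the 6 ends listed in all 5 libraries had a median of 66.2% in muscle and 0.777% (P5_2iL) to 37.3% (P5_a2iL) in the teratomas. Against muscle 6 of 7, 6 of 7, 4 of 6 and 5 of 7 measured ends were lower. Of all gene ends, 1.19%, 1.11%, 0.858% and 1.33% were lower. Spi1 went the other way in P5_2iL (95.6% against 40.2%) and P5_2iL_F (69.8% against 33.3%). Median ends of the other marker lists were 4.58% in muscle and 6.93% to 11.9% in the teratomas for 5 neural genes, 30.2% and 38.8% to 80% for 5 epithelial genes, and 23.6% and 10.8% to 38.8% for 6 endothelial genes. The endothelial ends went both ways. Tie1 was called higher than muscle in each teratoma and Pecam1 in P5_a2iL, while Eng and Plvap were called lower in all but P5_a2iL. The part of cell composition in the differences below was not tested.

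Promoter sequences from RefSeq (GRCm38.p6, the build also called mm10) were matched to 24 of the 35 genes by symbol. Shown first is the promoter whose level differed most from muscle (in P5_2iL_F), an internal start site of Sox6 (chr7:116030998-116031297, minus strand). Beside it stand Tbx6 (chr7:126781233-126781532, plus strand), the only member called at its gene end, and the CpG-dense promoters of Sox11 (chr12:27342669-27342968, minus strand) and Sox2 (chr3:34649745-34650044, plus strand), which stayed low in all 5 libraries. Each runs 5′ to 3′ from 250 bases before to 50 bases after the start site, and capitals mark the CpGs with a level in all 5 libraries.
Sox6 internal promoter: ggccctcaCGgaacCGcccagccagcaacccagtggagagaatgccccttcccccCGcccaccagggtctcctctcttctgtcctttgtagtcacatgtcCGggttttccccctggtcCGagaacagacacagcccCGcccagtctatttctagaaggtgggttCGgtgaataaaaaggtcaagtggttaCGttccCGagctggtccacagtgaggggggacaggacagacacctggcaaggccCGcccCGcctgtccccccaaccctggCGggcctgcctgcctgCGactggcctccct
Tbx6 promoter: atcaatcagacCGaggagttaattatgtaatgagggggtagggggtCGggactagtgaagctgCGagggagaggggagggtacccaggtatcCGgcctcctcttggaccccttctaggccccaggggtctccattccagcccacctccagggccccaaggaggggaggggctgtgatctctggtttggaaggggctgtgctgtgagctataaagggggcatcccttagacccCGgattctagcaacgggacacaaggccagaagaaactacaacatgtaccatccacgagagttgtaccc
Sox11 promoter: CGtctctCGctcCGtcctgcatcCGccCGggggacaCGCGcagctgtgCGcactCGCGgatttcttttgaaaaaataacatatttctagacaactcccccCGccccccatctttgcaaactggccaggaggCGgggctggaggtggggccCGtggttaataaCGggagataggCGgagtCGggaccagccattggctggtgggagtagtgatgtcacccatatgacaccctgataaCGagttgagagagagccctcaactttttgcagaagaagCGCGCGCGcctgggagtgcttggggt
Sox2 promoter: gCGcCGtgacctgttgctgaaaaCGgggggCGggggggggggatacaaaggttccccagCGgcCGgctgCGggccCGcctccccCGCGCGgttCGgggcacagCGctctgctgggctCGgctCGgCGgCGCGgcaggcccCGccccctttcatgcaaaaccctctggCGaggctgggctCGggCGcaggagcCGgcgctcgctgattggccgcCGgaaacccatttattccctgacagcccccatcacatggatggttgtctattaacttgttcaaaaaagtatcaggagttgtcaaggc
The Sox6 sequence holds 13 CpGs, all of them measured, and that of Tbx6 holds 7, of which 5 were measured. That of Sox11 holds 21 and that of Sox2 holds 27, of which 24 were measured. The SOX core ACAAAG, searched on both strands, occurred in the Sox6 and Sox2 sequences and in 18.7% of 32851 RefSeq promoters of this length. The GATA core AGATAA (11.2% of promoters) and the T-box core GGTGTGA (3.98%) occurred in none of the 4. A match is only a string in the window.

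The ends of these genes were mostly unmethylated in muscle and stayed so in the teratomas. Of the 35, 31 had a level in all 5 libraries, over a median of 52 cytosines, and Sox30, Tbx18, Gata4 and Gata5 did not. The end lay under 10% in 24 genes in muscle and in 25, 25, 24 and 21 in the teratomas. The median of the 31 was 2.52% in muscle and 3.35%, 4.36%, 5.40% and 4.41% in the teratomas. The ends at 10% or more in muscle were those of Sox10 (28.4%), Sox15 (32.7%), Tbx4 (37.1%), Tbx15 (13.2%), Tbx19 (71.4%), Tbx21 (10.7%) and Gata3 (75%), that of Gata3 over 4 cytosines and that of Tbx19 over 7. P5_LCDM was the highest library at 12 of the 31 ends (38.7%), beside 24.8% of all gene ends. Over 14633 gene ends of all protein coding genes the medians ran from 1.02% in muscle to 1.48% in P5_LCDM. Of the 24 genes with a RefSeq strand, the window lay at the 5′ end in 21 and at the 3′ end in Tbx10, Tbx18 and Gata3. The strands of these windows differed by a median of 1.73 points within a library, and by 25 points or more in 2 of 147 cases.

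**Figure D1:**
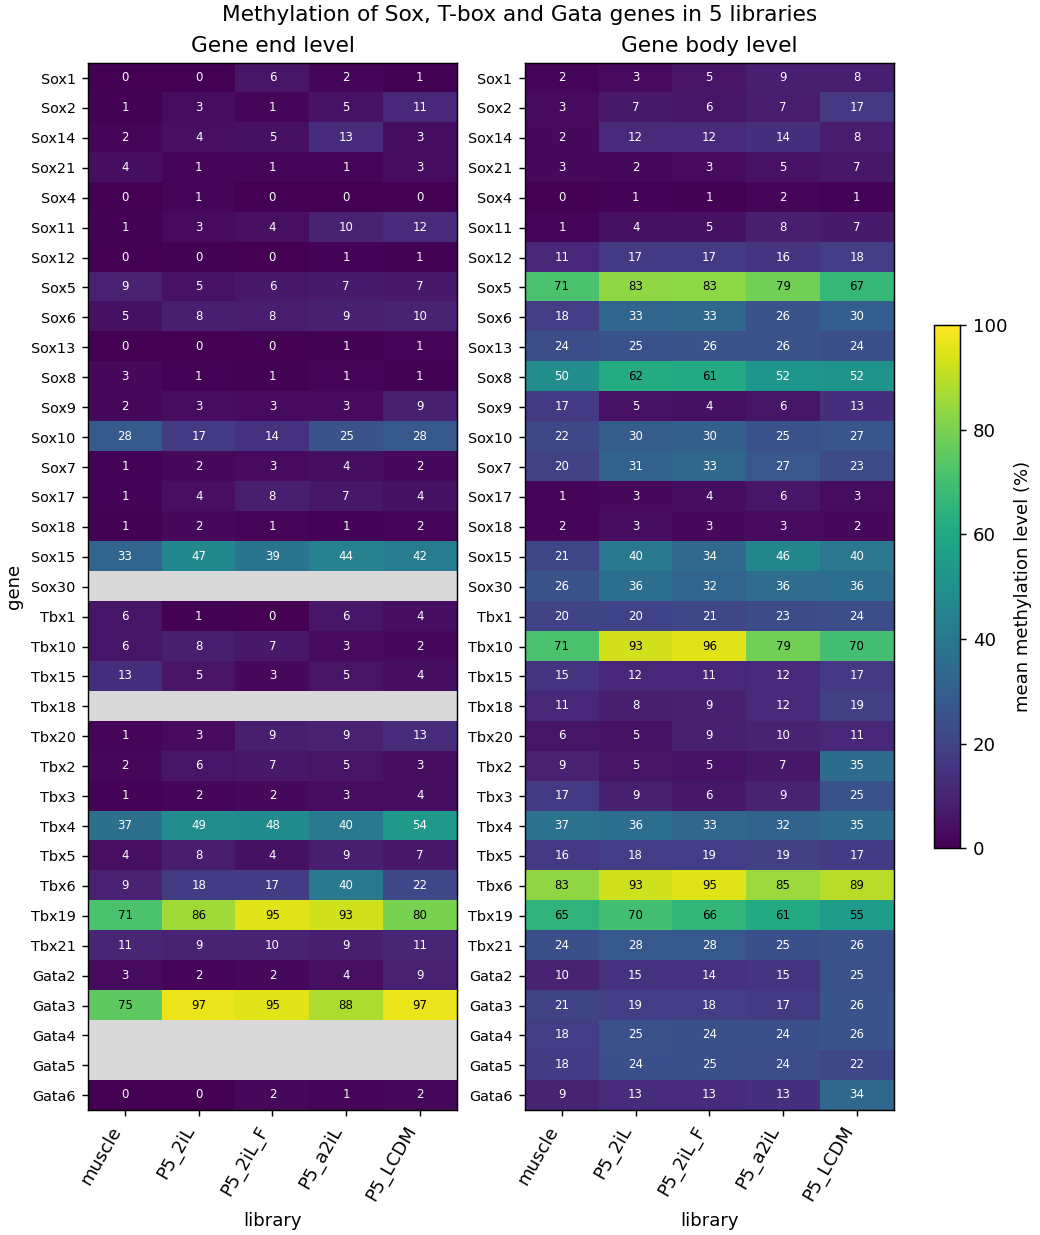
Mean methylation level in percent of the gene end (left) and gene body (right) of the 35 genes, 1 row per gene and 1 column per library, over cytosines listed in all 5 libraries, grey where fewer than 3 were. Most gene ends are dark, at under 10%, in all columns, and the bodies of Tbx2 (35.4%) and Gata6 (33.9%) stand out in the P5_LCDM column.

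Tbx6, which directs paraxial mesoderm toward somites, was the 1 member called at its end. Its level over 14 cytosines was 9.13% in muscle and 17.8%, 17.4%, 40.4% and 21.8% in the teratomas. P5_a2iL was highest and muscle lowest. Over the 20 cytosines that P5_a2iL and muscle shared, the levels were 33.2% and 6.39%, a difference of 26.9 points, against 3.18% of all gene ends that were higher in this pair. The plus strand alone differed by 11.6 points and the minus strand by 42.5, so the call rested on one strand. The window also overlaps the neighbouring gene Ypel3. In the other 9 pairs of libraries 0 member ends were called, and 0 were lower in P5_a2iL than in muscle. The shares of all gene ends called higher and lower against muscle were 4.77% and 1.19% in P5_2iL, 4.53% and 1.11% in P5_2iL_F, 3.18% and 0.858% in P5_a2iL, and 3.29% and 1.33% in P5_LCDM. Against P5_2iL they were 0.367% and 0.439% in P5_2iL_F, 1.12% and 2.06% in P5_a2iL, and 1.3% and 3.24% in P5_LCDM. Against P5_2iL_F they were 0.892% and 1.65% in P5_a2iL and 1.2% and 3.06% in P5_LCDM, and for P5_LCDM against P5_a2iL 1.34% and 1.79%. Few gene ends of any kind therefore passed the rule.

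Within 300-base promoters the most different member was Sox6, a SoxD factor without an activation domain of its own that acts with Sox5 in cartilage and, in mouse muscle, represses slow-fibre genes. Its internal promoter, over 26 cytosines, lay at 4.61% in muscle and 57.3%, 76.8%, 31.2% and 52.3% in the teratomas. All teratomas were above muscle, by 26.6 points (P5_a2iL) to 72.2 points (P5_2iL_F). Single CpGs reached 13.9% at most in muscle, and ranged over 12.9% to 97.4%, 20.3% to 100%, 7.14% to 60.7% and 12.7% to 96.4% in the teratomas. In P5_2iL_F the 4 CpGs farthest upstream lay at 20.3% to 53.9% and the other 9, from 132 bp before to 36 bp after the start site, at 80% to 100%. P5_a2iL was called lower than P5_2iL (by 26.1 points; 1.95% of all promoters were lower) and lower than P5_2iL_F (by 45.6 points; 1.87%). The promoter lies inside the gene body. By contrast the CpG-richer outer end of Sox6 was low, at 4.56% in muscle and 7.54% (P5_2iL_F) to 9.91% (P5_LCDM) in the teratomas.

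**Figure D2:**
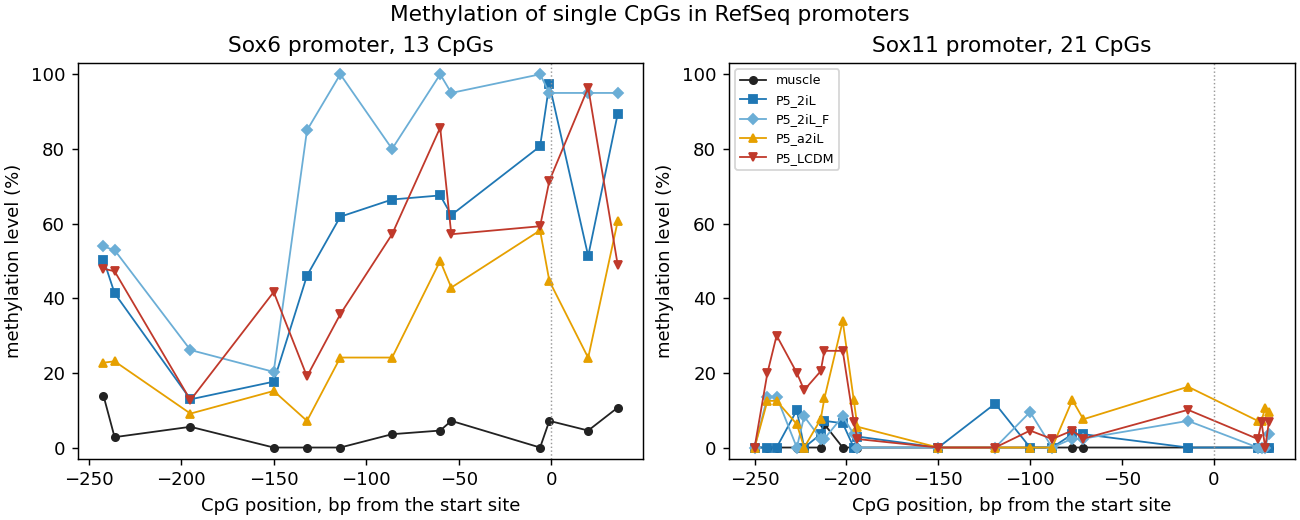
Methylation level in percent of each measured CpG against its distance in bp from the start site, for the internal promoter of Sox6 (13 CpGs) and the promoter of Sox11 (21 CpGs), with 1 line per library. At Sox6 no CpG in muscle exceeds 13.9% while P5_2iL_F reaches 100%, and at Sox11 no CpG exceeds 33.9% in any library.

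Of 31 RefSeq promoters of the members, 19 were measured in each pair with muscle. Higher than muscle were 2, 2, 4 and 3 in the teratomas (4.63%, 4.52%, 3.41% and 3.56% of all promoters), and 0 were lower (1.22%, 1.3%, 1.04% and 1.5% of all promoters). Sox6 supplied 2 of them in each teratoma. The second Sox6 start, measured over only 3 cytosines, lay at 27.8% in muscle and 69.9% (P5_LCDM) to 84.9% (P5_2iL_F) in the teratomas. Tbx6 was called in P5_a2iL, and its 9 promoter cytosines lay at 4.32% in muscle and 23.5%, 20.7%, 32.2% and 17.8% in the teratomas. Tbx20, a heart factor, was called in P5_a2iL over 25 cytosines (25.6% against 0), while over the 13 cytosines of all 5 libraries P5_a2iL lay at 3.08%, so that call rested on cytosines not listed in all libraries. Sox30, which drives spermatid genes in the mouse testis, lay over 15 cytosines at 35.6% in muscle and 63.3%, 47.8%, 38.1% and 76.7% in the teratomas. It was called higher in P5_LCDM than in muscle and than in P5_a2iL (1.62% of all promoters), and its single CpGs spanned 0 to 100% in each library. Between teratomas no promoter other than those of Sox6 and Sox30 was called. The shares of all promoters higher and lower were 0.418% and 0.532% for P5_2iL_F against P5_2iL, 1.25% and 1.95% for P5_a2iL against P5_2iL, and 1.47% and 3.04% for P5_LCDM against P5_2iL. They were 1.19% and 1.87% for P5_a2iL and 1.66% and 2.83% for P5_LCDM against P5_2iL_F, and 1.62% and 2.01% for P5_LCDM against P5_a2iL.

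The SoxB genes, which maintain neural progenitors (Sox1, Sox2) or act in differentiating neurons (Sox14, Sox21), were low throughout. The Sox2 promoter lay at 0.348% in muscle and 0.949%, 1.09%, 1.74% and 3.84% in the teratomas over 41 cytosines. Its gene body lay at 3.06%, 7.08%, 5.74%, 7.45% and 16.7% in the same order. P5_LCDM was highest at both, and neither difference reached 25 points. At the Sox14 promoter P5_a2iL was highest with 8.77%, above 0.404% in muscle and 2.40% to 4.10% in the other teratomas. In Sox1 the body lay at 1.70% in muscle and 2.92%, 5.45%, 8.52% and 8.36% in the teratomas, and in Sox21 it stayed between 2.28% and 6.62%. The Sox14 body lay at 2.36% in muscle and 12.3%, 12.3%, 13.8% and 8.10% in the teratomas. Both Sox1 and Sox2 share their windows with the noncoding transcripts Sox1ot and Sox2ot.

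Among the SoxC genes, active in neural and mesenchymal progenitors, Sox11 differed most. Its promoter lay at 0.329% in muscle and 2.27%, 3.60%, 9.22% and 10.3% in the teratomas over 38 cytosines. Muscle was lowest and the last 2 teratomas highest, with single CpGs reaching 33.9% in P5_a2iL and 30% in P5_LCDM. Sox4 stayed at 1.80% or less at its end and body in every library. The Sox12 end held the most cytosines of any member, 233, and stayed at 0.794% or less in all 5. The Sox12 body ran from 11.1% in muscle to 18.1% in P5_LCDM. A 1 kb tile inside Sox12 (chr2:152395001-152396000), in contrast, lay at 54.1% in muscle and 74.8% (P5_a2iL) to 85.6% (P5_LCDM) in the teratomas.

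The SoxE genes act in neural crest, and Sox9 also in cartilage and testis. The Sox9 body lay at 17.0% in muscle and 4.79%, 4.39%, 5.75% and 13.3% in the teratomas. Muscle was highest and P5_LCDM nearest to it. The tile chr11:112785001-112786000, with 34 cytosines, also had muscle highest and P5_LCDM next, at 46.9%, 6.90%, 11.7%, 15.7% and 32.4%. Sox8 had the most methylated body of the subfamily, 49.5% in muscle and 51.9% (P5_LCDM) to 61.6% (P5_2iL) in the teratomas. Sox10, a glial and melanocyte factor, lay at 21.7% in muscle and 25.1% (P5_a2iL) to 30.3% (P5_2iL_F). The endothelial SoxF genes Sox17 and Sox18 did not exceed 8.30% at end or body in any library, while the body of Sox7 lay at 19.5% in muscle and 23.0% (P5_LCDM) to 33.4% (P5_2iL_F).

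Sox15, a SoxG gene with a part in mouse muscle progenitors, was the 1 body called against muscle. Its 63 cytosines lay at 20.7% in muscle and 39.9%, 34.2%, 45.8% and 39.8% in the teratomas. All teratomas were above muscle, and only P5_a2iL passed the rule, by 25.1 points (29.1 on the plus and 21.2 on the minus strand), beside 1.92% of all bodies. With 1 value per CpG the difference was 20 points and the call was lost. The body overlaps the neighbouring gene Mpdu1. The body of Sox30 lay at 25.7% in muscle and 36.2%, 32.5%, 35.8% and 36.3% in the teratomas.

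Gene bodies of the 35 were less methylated than those of most genes. All 35 had a level in all 5 libraries, over 4 to 960 cytosines with a median of 228. Their median was 17.2% in muscle and 18.3%, 18.0%, 17.1% and 24.4% in the teratomas, beside 34.5%, 40.2%, 39.8%, 38.6% and 37.8% over 17620 bodies. The P5_LCDM library was the highest of the 5 in 14 of 35 bodies (40%), beside 15.8% of all bodies, and all 4 teratomas exceeded muscle in 22 (62.9%), beside 47.8%. By family, P5_LCDM was highest in 4 of 18 Sox, 6 of 12 T-box and 4 of 5 Gata bodies.

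Tbx2 and Gata6 were the members that set P5_LCDM apart. Tbx2 encodes a repressor that shapes heart chambers, limb and lung, and Gata6 an activator of endoderm and heart genes. The Tbx2 body, over 340 cytosines, lay at 9.07% in muscle and 5.27%, 4.89%, 6.53% and 35.4% in the teratomas. The Gata6 body, over 354 cytosines, lay at 9.40%, 12.5%, 12.6%, 13.4% and 33.9%. In both genes P5_LCDM lay far above the other 4 libraries, which differed among themselves by under 5 points. Within a library the strands of the Tbx2 body lay at most 5.86 points apart and those of Gata6 at most 10.1.

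Both bodies were called higher in P5_LCDM than in each other teratoma, and no other body was called in these pairs. Against P5_2iL the difference was 31.8 points in Tbx2 and 26.4 in Gata6, where 0.575% of all bodies were higher. Against P5_2iL_F it was 31.9 and 25.1 points (0.612%), and against P5_a2iL 29.1 and 26.1 points (0.542%). Each strand of Tbx2 alone passed 25 points in these 3 pairs, while the minus strand of Gata6 gave 23.0, 23.4 and 24.9 points. The Gata6 call was lost over the cytosines of all 5 libraries (21.4, 21.3 and 20.5 points) and with 1 value per CpG (24.9, 23.3 and 24.7 points). Against muscle, where 1.83% of all bodies were higher, 0 members were called, with Tbx2 at 24.8 points and Gata6 at 24.4. Tbx2 was called there over the cytosines of all 5 libraries and with 1 value per CpG. By this rule no member body was lower in any pair, although over the cytosines of all 5 libraries Tbx10 was lower in P5_LCDM than in P5_2iL_F, and 0 were called in P5_2iL or P5_2iL_F against muscle or in the other pairs of teratomas. Of all bodies, 4.23% were higher and 0.557% lower in P5_2iL than in muscle, 3.6% and 0.556% in P5_2iL_F, 1.92% and 0.44% in P5_a2iL, and 1.83% and 1.06% in P5_LCDM. The shares were 0.144% and 0.299% for P5_2iL_F against P5_2iL, 0.53% and 1.21% for P5_a2iL against P5_2iL, and 0.423% and 0.852% for P5_a2iL against P5_2iL_F. Lower in P5_LCDM were 3.4%, 2.94% and 1.55% of all bodies against P5_2iL, P5_2iL_F and P5_a2iL.

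At the measured ends of both genes P5_LCDM was low. At the CpG-richer end, 83 cytosines of Tbx2 lay at 2.24% in muscle and 5.64%, 6.55%, 5.40% and 3.19% in the teratomas. The 33 cytosines of Gata6 ran from 0.216% in muscle to 2.33% in P5_LCDM. Of the body cytosines of Tbx2, 58.2% had a level of 20 to 80% in P5_LCDM, beside 19.1% in muscle and 9.12% in P5_2iL. In Gata6 the shares were 48.6%, 14.7% and 17.8%.

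Fixed 1 kb tiles over each body and 5 kb on both sides showed where the differences lay. A tile was called on both strands where each strand alone differed by 25 points or more, a rule added after the data had been seen, and the tiles and promoters described in the text, those of Sox6, Sox9 and Sox12 above included, were singled out after their values were seen. In Tbx2 the tile chr11:85837001-85838000, with 104 cytosines, lay at 7.5% in muscle and 6.80%, 7.34%, 8.68% and 53.1% in the teratomas. Its neighbour chr11:85838001-85839000 lay at 8.13%, 3.94%, 3.24%, 5.32% and 46.6%. P5_LCDM alone was high across these tiles, on each strand and against each other library. The tile chr11:85832001-85833000, at the lower-coordinate edge of the gene, stayed at 0.823% to 3.80% in all 5. Farther out, chr11:85829001-85830000 lay at 29.2% in muscle and at 6.97%, 8.36%, 7.63% and 44.5% in the teratomas. Muscle reached 60% inside the gene only in a tile of 5 cytosines.

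In Gata6 the tile chr18:11054001-11055000, with 145 cytosines, lay at 0.201% in muscle and 2.27%, 3.26%, 4.65% and 33.6% in the teratomas. The next, chr18:11055001-11056000, lay at 8.41%, 15.8%, 15.7%, 21.8% and 57.1%. As in Tbx2, the tile over the lower-coordinate edge (chr18:11052001-11053000) was low in every library, at 2.33% or less. Levels farther inside the gene were high in all 5, such as 77.3% to 83.7% in the tile chr18:11064001-11065000.

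**Figure D3:**
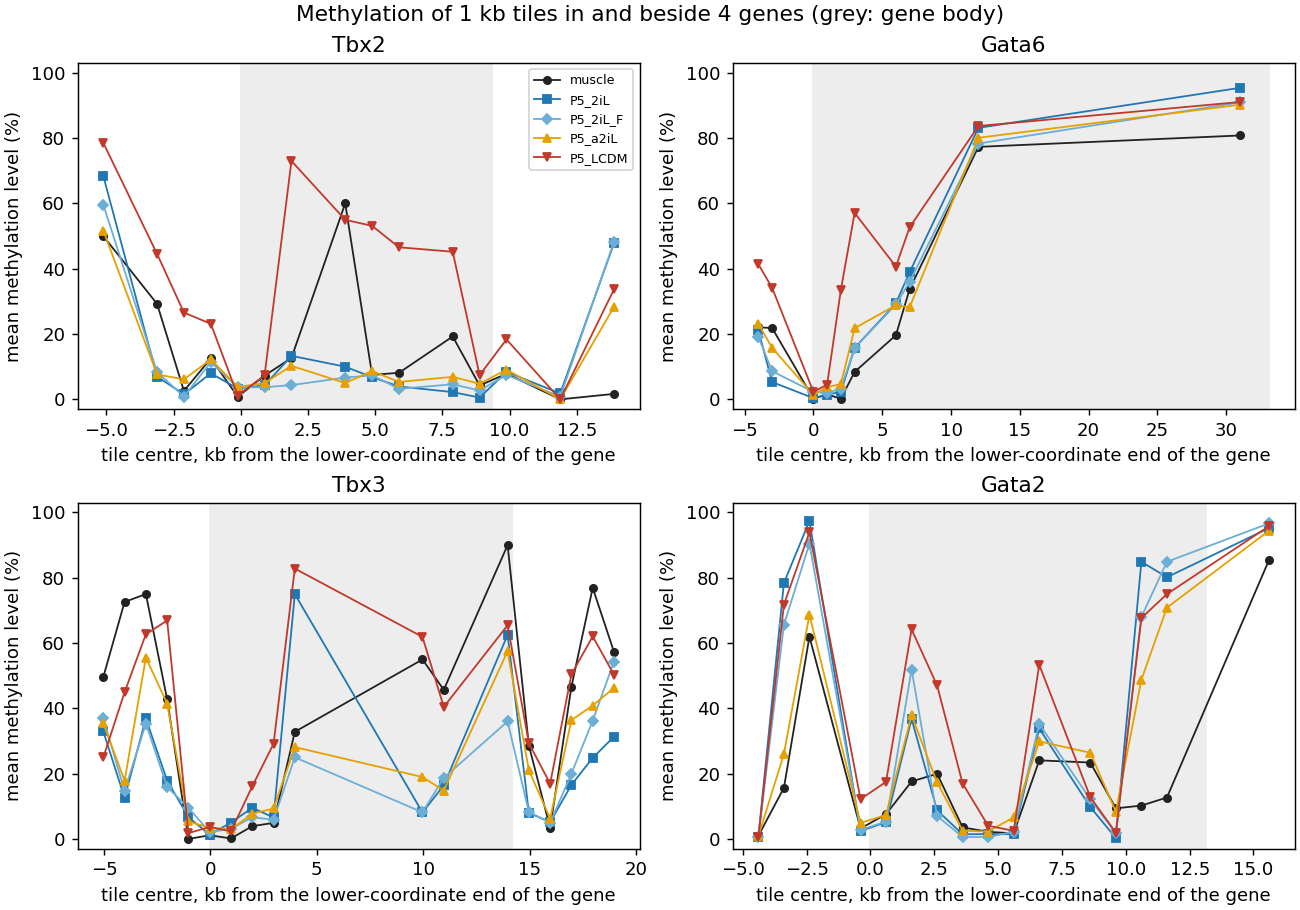
Mean methylation level in percent of 1 kb tiles with 3 or more cytosines in all 5 libraries, against the distance of the tile centre in kb from the lower-coordinate end of the gene, for Tbx2, Gata6, Tbx3 and Gata2, with 1 line per library and the gene body in grey. In named tiles P5_LCDM reaches 53.1% inside Tbx2 and 57.1% inside Gata6 where P5_2iL lies at 6.80% and 15.8%, and tiles at the lower-coordinate edge are low in every library.

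Tbx3, the closest relative of Tbx2 and a factor of limb and mammary gland, followed another order. Its body lay at 17.2% in muscle and 8.74%, 6.32%, 9.46% and 25.3% in the teratomas. The tile chr5:119680001-119681000, with 57 cytosines, lay at 55%, 8.11%, 8.14%, 19.0% and 61.9%, and the tile chr5:119687001-119688000 beyond the gene, with 73, at 46.7%, 16.6%, 20%, 36.4% and 50.4%. Muscle and P5_LCDM were both high in these tiles and P5_2iL and P5_2iL_F both low. The second of them overlaps the annotated transcript Tbx3os2.

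Gata3, a factor of T helper cells, inner ear and trophoblast, also had a tile where P5_LCDM and muscle were high. The tile chr2:9876001-9877000, with 21 cytosines, lay at 62.4% in muscle and 6.77%, 2.47%, 18.7% and 67.0% in the teratomas. A tile near it, chr2:9874001-9875000, had another order, at 34.0%, 91.0%, 60.3%, 28.4% and 59.3%. The RefSeq promoter of Gata3 stayed at 0.833% or less in every library. P5_2iL and P5_2iL_F were below muscle in the first of these tiles and above it in the second, while the body mean ran from 17.1% to 25.9%.

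Gata2, needed by blood stem cells, was the Gata gene with tiles higher in all teratomas. The tile chr6:88204001-88205000, with 42 cytosines inside the gene, lay at 10.2% in muscle and 84.9%, 68.0%, 48.8% and 67.7% in the teratomas. It was called on both strands in each teratoma against muscle. Outside the gene, chr6:88190001-88191000 lay at 15.6%, 78.4%, 65.6%, 26% and 71.8%, where P5_a2iL was near muscle. The tile chr6:88196001-88197000 was higher in P5_LCDM (47%) than in the other teratomas (7% to 17.3%) and muscle (20%). The Gata2 promoter stayed at 3.40% or less, and Gata4 and Gata5 bodies ran from 17.7% to 26.1%.

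**Figure D4:**
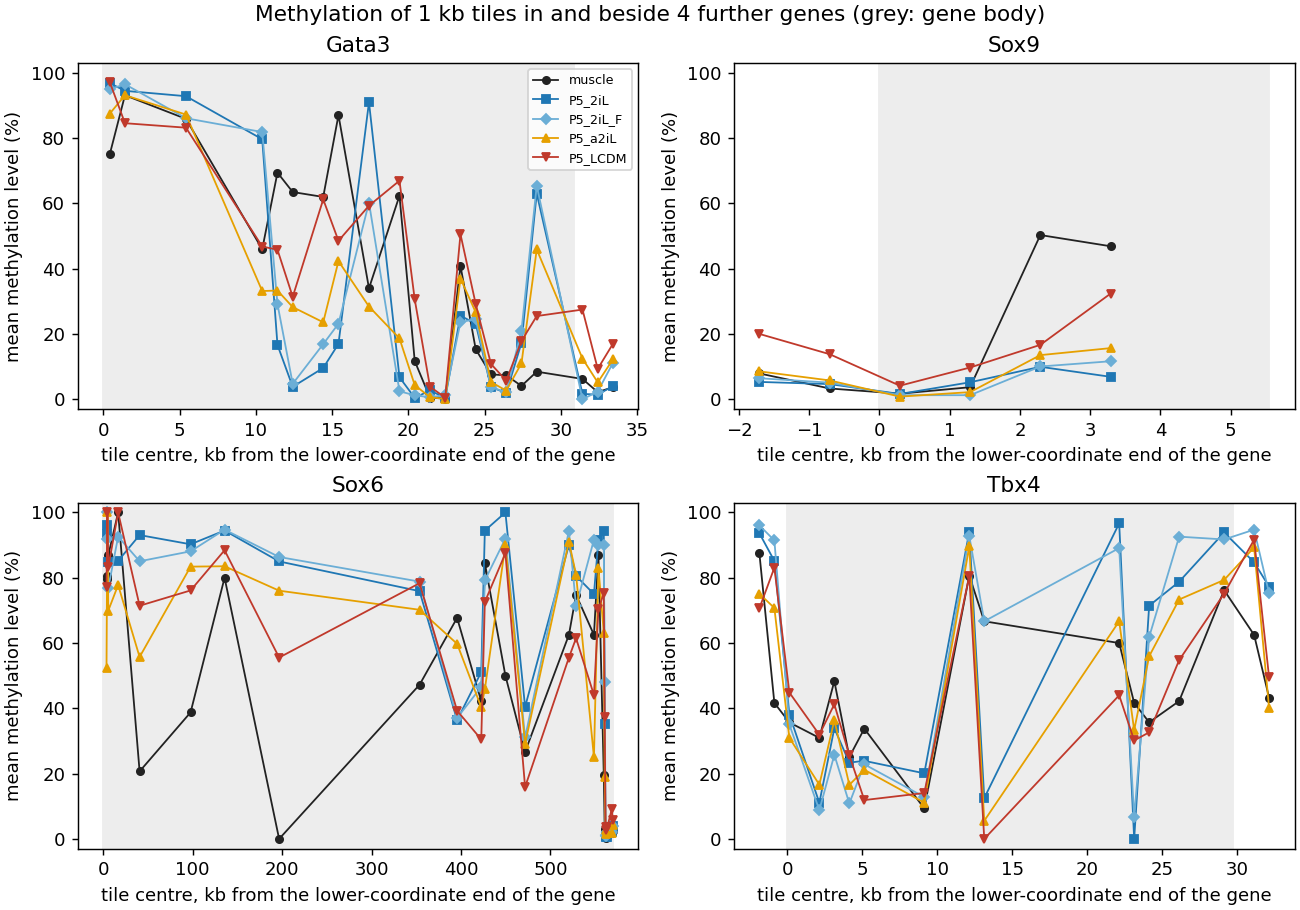
Mean methylation level in percent of 1 kb tiles, drawn as for Tbx2, in and beside Gata3, Sox9, Sox6 and Tbx4. In Gata3 and Sox9 muscle reaches 62.4% and 46.9% in tiles where P5_2iL lies at 6.77% and 6.90%, and in Sox6 muscle lies at 0 in a tile where P5_2iL lies at 85%.

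Of the 905 tiles, the long SoxD genes Sox5 and Sox6 held 281 and 85. The Sox6 tile chr7:115667001-115668000, with 8 cytosines, was listed at 0 in muscle and lay at 85%, 86.4%, 76.0% and 55.6% in the teratomas. The tile chr7:115568001-115569000, with 22 cytosines, lay at 38.8%, 90.3%, 88.1%, 83.4% and 76.1%, and chr7:116030001-116031000, beside the internal promoter, at 19.6%, 94.4%, 89.9%, 63.1% and 75.3%. Muscle was lowest in all of these, and the body as a whole lay at 18.1% in muscle and 26.1% (P5_a2iL) to 33.4% (P5_2iL_F) in the teratomas. On both strands 5, 6, 4 and 5 of 15 Sox6 tiles were higher than in muscle (9.47%, 8.56%, 4.8% and 4.6% of all tiles). Other Sox6 tiles were lower than in muscle, 1 in P5_2iL (2.02% of all tiles) and 1 in P5_a2iL (0.808%).

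Sox5, its partner in cartilage, was highly methylated. Its body, over 960 cytosines, lay at 71.1% in muscle and 83.2%, 82.9%, 78.6% and 66.7% in the teratomas. P5_LCDM was the lowest, with 50.7% of cytosines at 20 to 80%, beside 15.9% in P5_2iL and 39.2% in muscle. Of the 22 member tiles called lower on both strands in P5_LCDM than in P5_2iL, 15 lay in Sox5.

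Among T-box genes of limb and trunk, Tbx15 and Tbx4 held tiles with lower levels in muscle. Tbx15, which marks fast glycolytic fibres in mouse muscle, had 9 cytosines in the tile chr3:99349001-99350000 at 9.26% in muscle and 92.0%, 84.4%, 64.6% and 80.1% in the teratomas. Tbx4, a hindlimb and lung factor, had 14 just outside the gene (chr11:85885001-85886000) at 41.7%, 85.2%, 91.4%, 70.7% and 83.1%. Muscle was lowest in both. Tbx5, the forelimb and heart counterpart, had a body of 16.5% in muscle and 17.5% to 19.1% in the teratomas. The bodies of Tbx15 and Tbx4 ran from 11.2% to 16.7% and from 31.9% to 37.4%.

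Sox13, the remaining SoxD gene, had a body of 23.7% to 25.7% and a tile of 7 cytosines (chr1:133386001-133387000) at 66.7% in muscle and at 13.2%, 11.4%, 84.5% and 80.1% in the teratomas. It was called lower on both strands in P5_2iL than in muscle.

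Of the remaining T-box genes, Tbx1 (pharyngeal arches) had a body of 20.3% to 23.8%, Tbx20 of 4.98% to 11.2% and Tbx21, the T helper factor T-bet, of 24.5% to 27.6%. Tbx18, a gene of the epicardium, lay at 11.4% in muscle and 8.28%, 8.62%, 12.4% and 18.9% in the teratomas. Tbx6 had a methylated body, at 83.2% to 95.1% over 11 cytosines. The Tbx10 body ran from 70.0% (P5_LCDM) to 95.7% (P5_2iL_F) over the 4 cytosines of all 5 libraries, a gap past 25 points, while over the 14 that this pair shared it lay at 74.3% and 98.8% and was not called. The body of Tbx19, which drives pituitary corticotrophs, ran from 55% (P5_LCDM) to 69.8% (P5_2iL).

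Counts of tiles called on both strands were read against all tiles near genes. In P5_2iL against muscle 23 of 334 member tiles were higher and 6 lower (9.47% and 2.02% of all tiles). In P5_2iL_F it was 24 and 5 of 340 (8.56% and 1.77%), in P5_a2iL 9 and 7 of 330 (4.8% and 0.808%), and in P5_LCDM 18 and 6 of 343 (4.6% and 1.83%). The members' shares of higher tiles (6.89%, 7.06%, 2.73% and 5.25%) were below the background except in P5_LCDM, where 12 of 271 (4.43%) lay below it without Sox5 and Sox6. The share of lower tiles was above the background in P5_a2iL (2.12%). The comparisons share the muscle library. More tiles were measured by the mean over all shared cytosines, whichever strand they lay on. By this mean 73 of 522 were higher and 29 lower in P5_2iL (17.3% and 3.56% of all tiles), and 77 and 27 of 532 in P5_2iL_F (16.2% and 3.48%). It was 50 and 28 of 519 in P5_a2iL (11.4% and 3.19%), and 48 and 41 of 527 in P5_LCDM (10.1% and 5.68%). By this measure the members' shares of higher tiles were below the background in all 4 teratomas (9.11% in P5_LCDM), and those of lower tiles above it (5.56%, 5.08%, 5.39% and 7.78%). Without Sox5 and Sox6, 17 of 381 tiles were lower in P5_LCDM, a share below the background of 5.68%. The lower tiles in P5_2iL (24 of 377), P5_2iL_F (22 of 384) and P5_a2iL (22 of 379) remained above it.

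Between teratomas, 15 of 349 tiles were higher and 22 lower in P5_LCDM than in P5_2iL (1.83% and 5.82% of all tiles), 13 and 18 of 358 against P5_2iL_F (1.57% and 4.98%), and 11 and 12 of 340 against P5_a2iL (1.05% and 2.33%). In each of these pairs the higher tiles lay in the same 5 genes, Tbx2, Tbx3, Gata2, Gata3 and Gata6, and the pairs share the P5_LCDM library. P5_a2iL had 2 higher and 9 lower of 336 against P5_2iL (1.21% and 2.14%) and 1 and 5 of 339 against P5_2iL_F (0.953% and 1.43%). P5_2iL_F and P5_2iL differed in 0 of 350 (0.0611% and 0.0876%). By the mean over all shared cytosines, P5_LCDM had 31 higher and 81 lower tiles against P5_2iL (3.3% and 12.9%), 30 and 76 against P5_2iL_F (3.34% and 11.9%), and 36 and 41 against P5_a2iL (3.83% and 7.52%). P5_a2iL had 11 and 45 against P5_2iL (3.12% and 7.16%) and 8 and 35 against P5_2iL_F (2.98% and 6.18%), and P5_2iL_F had 11 and 9 against P5_2iL (1.79% and 2.05%). Against each other teratoma the share of member tiles higher in P5_LCDM was above the background (5.61% of 553, 5.37% of 559 and 6.61% of 545). The share of lower tiles was also above it against P5_2iL (14.6%) and P5_2iL_F (13.6%), and equal to it against P5_a2iL (7.52%). On both strands, the shares of higher tiles (4.3%, 3.63% and 3.24%) and of lower tiles (6.3%, 5.03% and 3.53%) were all above the background. The excess of lower tiles rested on Sox5 and Sox6. Without these genes the shares of lower tiles on both strands were 2.54%, 2.83% and 1.47%, all below the background. The shares of higher tiles were then 5.43%, 4.59% and 4.04%, still above it. By the mean over all shared cytosines, P5_LCDM without them had 31 higher and 32 lower of 394 against P5_2iL. It had 30 and 34 of 396 against P5_2iL_F, and 30 and 12 of 390 against P5_a2iL. These shares of lower tiles were also below the background.

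CpG-dense cytosines are those with 30 or more listed cytosines within 100 bp. Their order of libraries was unlike that of sparse DNA, in the members as in all genes. Over 4300 such cytosines in and near the members the level was 3.75% in muscle and 4.53%, 4.99%, 6.72% and 10.9% in the teratomas. Over 689120 in and near all genes it was 2.77%, 3.68%, 3.66%, 3.93% and 4.65%. P5_LCDM was highest in both sets. Without Tbx2, Tbx3, Gata2 and Gata6 the members gave 2.92%, 4.34%, 4.91%, 6.68% and 7.41%. Where fewer than 5 cytosines were listed, 563 member cytosines lay at 59.7%, 72.2%, 70.4%, 65.9% and 59.5%, with P5_2iL highest.

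By gene, 33 members had 3 or more dense cytosines, and P5_LCDM was highest in 16 of them and P5_a2iL in 9. The same count was not made over all genes, so these counts have no background. Gata6 had the highest level of these in P5_LCDM, 38.8% beside 4.75% in muscle and 5.58% to 8.41% in the other teratomas. Tbx2 lay at 25.2% beside 3.56%, Gata3 at 18.3% beside 4.79% and Sox2 at 13.3% beside 1.63%. Sox11 lay at 9.20% beside 0.992%, with P5_a2iL at 8.67%, and Sox1 at 10.2% beside 1.93%, with P5_a2iL at 10.1%. Sox4, Sox12, Sox13 and Sox18 stayed at 2.31% or less in every library.

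**Figure D5:**
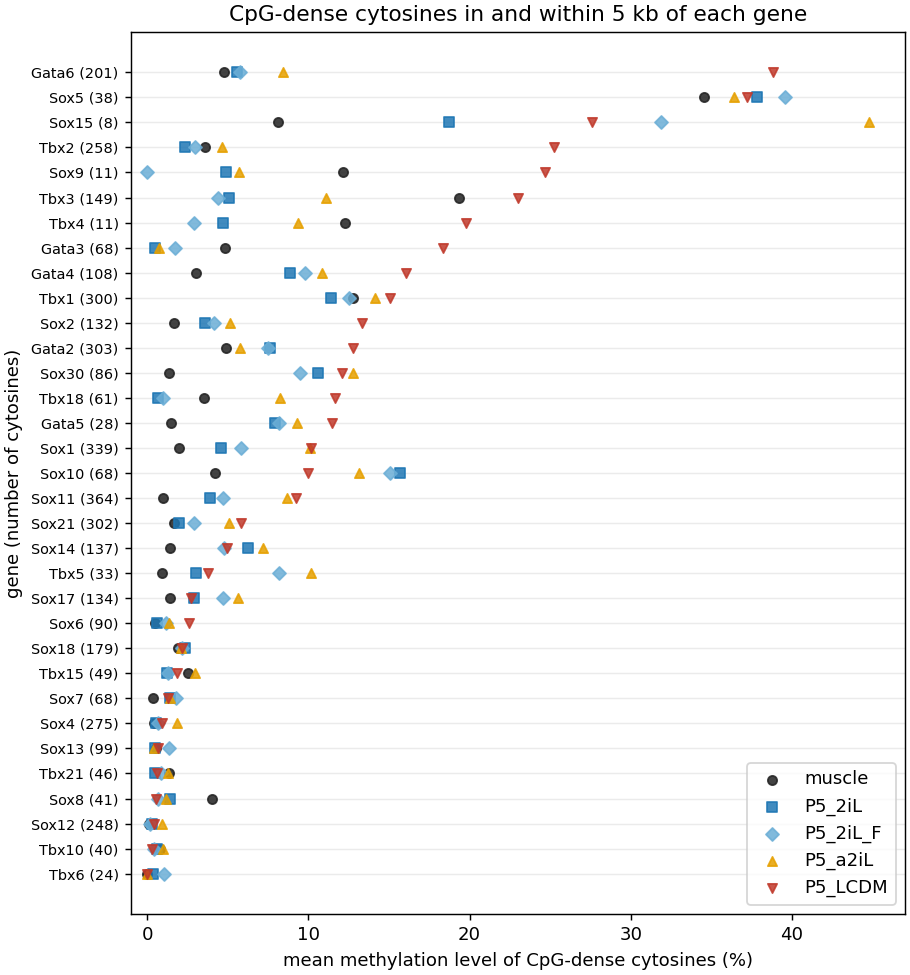
Mean methylation level in percent of CpG-dense cytosines in and within 5 kb of each of 33 genes, 1 row per gene with its number of cytosines, 1 point per library, ordered by P5_LCDM. P5_LCDM reaches 38.8% in Gata6 and 25.2% in Tbx2, and most genes in the lower part of the plot stay near 0 in all libraries.

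Relatives outside the set and genes that work with it were read from lists. Of 10 further family genes, 7 had a measured end. Tbr1, a T-box gene of cortical neurons, was higher than in muscle in P5_2iL (51.8% against 7.14%), P5_a2iL (34.3%) and P5_LCDM (66.7%) over 7 cytosines, and the other 6 were not called. Of all gene ends, 4.77%, 3.18% and 3.29% were higher in these pairs. The median end of the 7 genes was 1.67% in muscle and 5.06%, 4.72%, 6.24% and 12.6% in the teratomas. Over all gene ends the medians were 1.02%, 1.13%, 1.19%, 1.47% and 1.48%. Of 40 partner and target genes, 30 or 31 had a measured end against muscle. Lyl1, a blood factor that acts with Gata2, was lower in P5_2iL (0.354% against 27.8%) and in P5_2iL_F (2.04% against 30.9%), and Lmo2, which bridges the same complex, was lower in P5_2iL (22.0% against 47.1%). Over the same 14 cytosines Lmo2 lay at 52.2% in P5_a2iL and 70.9% in P5_LCDM, both called higher than P5_2iL. Ifng, a target of T-bet, was higher in P5_a2iL over 3 cytosines (100% against 66.7%). In P5_LCDM 0 partners were called against muscle. These counts, 0 to 2 of 30 or 31, stand beside 3.18% to 4.77% of all gene ends that were higher and 0.858% to 1.33% that were lower than in muscle. Their median end was 2.91% in muscle and 3.53%, 4.27%, 5.88% and 6.55% in the teratomas, above the medians of all gene ends.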

How the data were processed

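Reduced representation bisulfite libraries of 1 muscle control and 4 teratomas were analysed, 1 per group. Per the submitters' processing notes, reads were trimmed with Trim Galore 0.6.4 and called with Bismark on mm10; the version of Bismark and a coverage minimum were not given in the sources used here. The deposited files give the percent methylation of each listed cytosine, as the authors computed it, without read counts. The Fisher tests planned for read counts were therefore not run, and no interval could be given. PCR reads are not independent molecules, and depth at each cytosine is unknown.

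Positions were read as 1-based: 495270 of 495270 listed cytosines in 32851 RefSeq promoters (GRCm38.p6) lay on a CpG (100%). Levels are unweighted means over shared cytosines, with 3 or more required, and a difference of 25 points (tolerance 0.001) was called. Coordinates are mm10. Strand was taken from RefSeq promoters, which matched 24 of the 35 genes by symbol, so the others are described by their CpG-richer end. Exon and intron positions were not used here. Only the mean level and the size rule were tested on simulated tiles, at an assumed read depth that may differ from the real one. The choice of gene end, the strand pairing and the promoter and density steps were not part of that test. Values were computed in Python 3.11.15 with pandas 2.3.3 and NumPy 2.4.6, and plots drawn with matplotlib 3.10.9.

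The members, lists and windows were chosen with earlier results of these data known. All 35 genes are accounted for, those called in any of the 10 pairs of libraries are given with 5 levels, and at most 4 called genes are named from each other list. Alternatives changed the size rule, the cytosine minimum, the window, the cytosines compared and the strands. The start-site window, the tile alternatives, the both-strand rule and the sets without named genes were added after seeing the data.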

Additional observations from a re-analysis of the deposited data

Results flagged for a closer look

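In 4 tiles at least 1 teratoma was called higher and at least 1 other lower than the same muscle library. The share of all tiles near genes that meet this rule was not computed. Each difference compares single libraries and was not tested. The Sox5 tile chr6:144446001-144447000 lay at 53.3% in muscle and at 83.3%, 96.7%, 83.3% and 17.6% in the teratomas, so that P5_2iL_F and P5_LCDM lay 79.0 points apart. The Sox5 tile chr6:144770001-144771000 lay at 66.7% and at 88.9%, 91.7%, 50% and 33.3%, and the same libraries lay 58.3 points apart. The Sox6 tile chr7:116019001-116020000 lay at 62.5% and at 75%, 91.7%, 25% and 44.0%, with P5_2iL_F and P5_a2iL 66.7 points apart. The Tbx19 tile chr1:165142001-165143000 lay at 70.8% and at 100%, 100%, 33.3% and 100%, with P5_2iL and P5_a2iL 66.7 points apart. No Tbx19 tile was called lower on both strands in P5_a2iL than in muscle.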

How the results depend on the processing

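No called difference of a single member or tile changed sign under the alternatives run, but the balance of higher against lower tiles did turn in some pairs, as given below. No paired analysis was possible because each group holds 1 library, and for the same reason there was no replicate to leave out. Depth is unknown. The cause of the changes below was not tested. Shares over all genes or tiles were computed only for the main rule and the both-strand rule. Counts under the other settings therefore have no background and do not show a trait of the members.

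At gene ends, 20 points called 1 member in P5_2iL (Gata3), 2 in P5_2iL_F (Tbx19, Gata3), 2 in P5_a2iL (Tbx6, Tbx20) and 1 in P5_LCDM (Gata3) against muscle, and 2 in P5_LCDM against P5_a2iL. The CpG-poorer end was measured in only 9 or 10 members and called 2 of 9 in P5_2iL, 3 of 9 in P5_2iL_F (2 higher, 1 lower) and 1 of 9 in P5_LCDM against muscle, and 1 of 10 and 2 of 10 in P5_LCDM against P5_2iL and P5_2iL_F. The start-site window, measured in 21 members, called 2 in P5_2iL and 2 in P5_2iL_F (Sox6, Tbx10) and 1 in P5_LCDM (Sox6) against muscle, and 1 (Tbx10) in P5_LCDM against each of P5_2iL and P5_2iL_F. A 500 bp flank called 1 (Tbx10) in P5_a2iL and in P5_LCDM against P5_2iL, and 1 value per CpG called 1 (Gata5) in P5_LCDM against P5_2iL_F.

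For gene bodies, 20 points called 1 in P5_2iL_F and 2 in P5_LCDM against muscle, and 4 in P5_LCDM against P5_2iL_F (3 higher, and Tbx10 lower). Leaving out the end window called 1 in P5_2iL_F (Sox7) and 3 in P5_LCDM against muscle. With 1 value per CpG, 0 were called in P5_a2iL and 1 in P5_LCDM against muscle, and 1 (Tbx2) in P5_LCDM against each teratoma. Over cytosines of all 5 libraries 1 (Tbx2) was called in P5_LCDM against muscle, P5_2iL and P5_a2iL, and against P5_2iL_F Tbx2 was higher and Tbx10 lower.

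Without Sox5 and Sox6, called tiles numbered 62, 65, 46 and 52 in P5_2iL, P5_2iL_F, P5_a2iL and P5_LCDM against muscle (102, 104, 78 and 89 with them). Against P5_2iL they were 32 in P5_a2iL (56) and 63 in P5_LCDM (112), against P5_2iL_F 21 (43) and 64 (106), and 42 in P5_LCDM against P5_a2iL (77). Among these, 31 were higher and 32 lower in P5_LCDM than in P5_2iL (31 and 81 with Sox5 and Sox6), 30 and 34 against P5_2iL_F (30 and 76), and 30 and 12 against P5_a2iL (36 and 41), so the excess of lower tiles in P5_LCDM shrank or turned. On both strands without them, P5_LCDM had 15 higher and 7 lower against P5_2iL (15 and 22), 13 and 8 against P5_2iL_F (13 and 18) and 11 and 4 against P5_a2iL (11 and 12), and P5_a2iL had 2 and 5 against muscle (9 and 7). With 5 cytosines required, 13 were called in P5_2iL_F (6 higher, 7 lower) and 37 in P5_a2iL against P5_2iL, and 49 in P5_LCDM against P5_a2iL (27 higher, 22 lower). Over cytosines of all 5 libraries 12 were called in P5_2iL_F against P5_2iL (5 higher, 7 lower, beside 11 and 9 otherwise), and 20 points called 66 in P5_a2iL against P5_2iL_F. Only tiles called on both strands were recomputed singly. Of their recomputed differences, 791 kept their side of the rule, 18 lost the call and 12 gained it. For such tiles the 5-cytosine setting could not change a call, and it kept all 206. The 20-point setting could only keep or gain a call (197 kept and 9 gained), so neither setting could lose one.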
